A study of Arabidopsis thaliana with 30 samples.

Results

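WRKY53 and WRKY6 encode WRKY transcription factors, proteins found mainly in plants, and are known for their part in leaf senescence, the ordered dismantling of an ageing leaf. The members described here were the probe sets that the platform annotation names WRKY53 or WRKY6. There are 2 such probe sets among the 22746 on the array that are not controls, 254231_at for WRKY53 (locus AT4G23810) and 264746_at for WRKY6 (locus AT1G62300). Each gene has a single probe set. The rule itself names no comparison. Both genes were taken to be chosen from measured values of untreated plants, since earlier results of these data had named WRKY53 for a higher level in the WRKY63 overexpressor than in Col0, and WRKY6 for a lower level in the WRKY40 overexpressor than in Col0. Those comparisons, and all others that use the arrays behind them for that gene, are therefore given with values and standard errors (SE) and without a test. The tests of the other comparisons hold only as far as that assumption does, because all results were known when the genes were picked.

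The arrays carry leaf RNA of 21-day-old Arabidopsis thaliana, in 10 groups of 3 arrays. Plants had grown on soil in 16 h of light and 8 h of darkness. The lines are called by their labels: Atwrky40 KO (a WRKY40 knockout), Atwrky40.4 OE (a WRKY40 overexpressor), Atwrky63 KO (a WRKY63 knockout), Atwrky63.3 OE (a WRKY63 overexpressor) and the wild type Col0. Each was sampled after 1 h under an intensity of 1000 µE m-2 s-1, called high light, and without treatment. Each mutant or overexpressor is represented by a single line name. The labels give neither the insertion in the knockouts nor the promoter of the overexpressors, and nothing in them tells if the 3 replicates are different plants, so p-values measure only the spread between these arrays, which may be technical. Neither WRKY40 nor WRKY63 has a probe set named by the annotation used here, so the lines could not be checked on the targeted transcripts.

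WRKY proteins bind W-box elements in promoters and act within a network in which members of the family raise or lower each other's transcription. In Arabidopsis, WRKY53 is an early positive regulator of leaf senescence whose transcript responds to hydrogen peroxide and salicylic acid, and WRKY6 is induced in senescing leaves and upon pathogen attack and also takes part in the phosphate response. High light raises reactive oxygen species in leaf cells and is a common trigger of transcripts of this kind. In bulk leaf RNA, fewer expressing cells and less transcript per cell cannot be told apart.

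The trimmed mean signal was at most 500.1 and nearly equal on all arrays, so the arrays share a scale. The median signal ran from 148.2 to 164.8 on high light arrays and from 168.9 to 187.2 on untreated arrays. RNA quality was read from the log2 ratio of 3' to 5' actin probe sets, which lay at 1.65 in the median array and reached 2.32 on Atwrky63.3 OE high light replicate 3 and 2.35 on Col0 untreated replicate 2. Of the 8 leaf markers listed, the annotation names 2, both bright on every array: RCA, which activates Rubisco, had signals of 23461 to 38076 and the light-harvesting gene LHCB4.2 of 9337 to 27537. Of the 6 root markers it names PYK10, with signals of 74.1 to 807, and EXPA7, a root hair expansin, with signals of 2.37 to 70.1. LHCB4.2 fell after high light in all 5 genotypes, by values from -0.55 in Atwrky40.4 OE to -0.29 in Atwrky63 KO, a call that in Atwrky63 KO (adjusted p = 0.0196) ended with no filter (adjusted p = 0.0516) and without its untreated replicate 1 (-0.26) or 2 (-0.29) or its high light replicate 2 (-0.26). PYK10 fell after high light in Col0 (-1.82 ± 0.50, adjusted p = 0.00404). RCA rose after high light in Atwrky63 KO (0.34 ± 0.12, adjusted p = 0.0212), though not with quantile normalization (0.12, adjusted p = 0.112), with no filter (adjusted p = 0.0609), without its untreated replicate 2 (0.30) or 3 (0.30) or without its high light replicate 1 (0.24). A probe set entered the tests when its mean log2 signal reached the 30th percentile, a signal of 46.7, which kept 15922. WRKY53 stood at the 60.3rd percentile of mean log2 signal and WRKY6 at the 34.9th, or at the 30.6th without the Atwrky63.3 OE arrays, so WRKY6 lies close to the filter. On 7 arrays WRKY6 was below 46.7, among them all 3 Atwrky40.4 OE untreated arrays and 2 of the 3 Atwrky40.4 OE high light arrays. Which of these dim signals lie above background is not known, since detection calls were not used here.

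WRKY53 was brightest in Atwrky63.3 OE and, in each mutant and overexpressing line, brighter after high light than without it. In Atwrky63.3 OE the 3 arrays (replicates 1 to 3 in order, here and below) had signals of 2103, 1003 and 2203 after high light, and of 624, 854 and 566 untreated. In Atwrky40 KO they had 389, 1008 and 621 after high light, and 145, 135 and 178 untreated. In both lines every high light array lay above every untreated one. The share of kept probe sets whose ranges separate in this way was not computed, so a lack of overlap is only a description, here and below. Atwrky63 KO had 420, 193 and 489 after high light against 52.9, 54.0 and 152 untreated. Atwrky40.4 OE had 198, 231 and 264 after high light against 76.7, 93.5 and 72.7 untreated, again without overlap. In Col0 the arrays read 184, 245 and 312 after high light and 111, 176 and 346 untreated, so there the ranges of the 2 conditions overlapped.

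**Figure D1:**
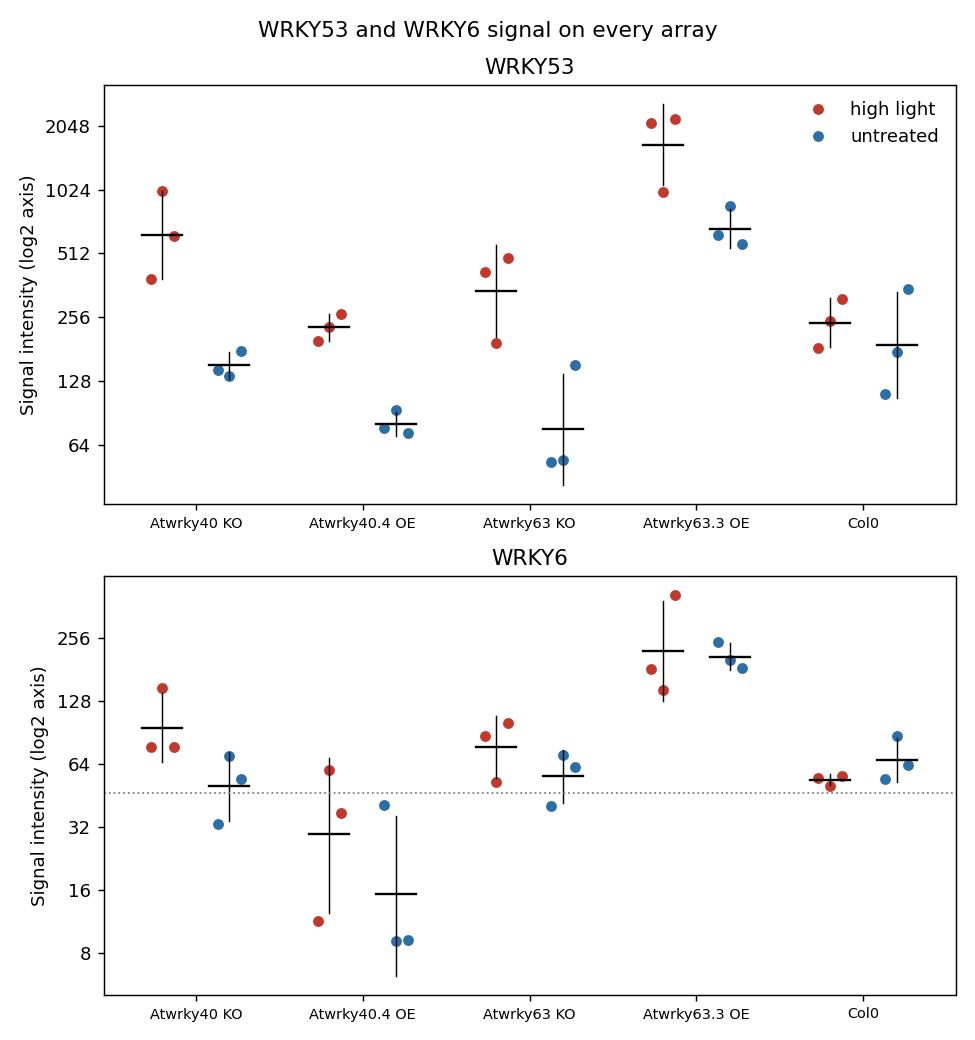
Signal intensity of WRKY53 (top) and WRKY6 (bottom) on each of the 30 arrays, on a log2 axis, with high light in red to the left of untreated in blue for each genotype. Points are arrays, horizontal bars the mean on the log2(signal + 1) scale and vertical bars ± 1 SD on that scale (n = 3). The dotted line in the lower panel is the signal of 46.7 at the filter. Both genes are highest in Atwrky63.3 OE, and WRKY6 is lowest in Atwrky40.4 OE.

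Ordered by mean log2 signal, the 10 groups began for WRKY53 with untreated Atwrky63 KO (mean signal 86.3 ± 56.8, SD, n = 3, as for the other means) and ended with Atwrky63.3 OE after high light (1770 ± 666). Only 2 of the 9 steps between neighbours in this order separated groups whose ranges did not overlap. These were the step above untreated Atwrky40.4 OE (81.0 ± 11.1) to untreated Atwrky40 KO (153 ± 22.3), and the step above untreated Atwrky63.3 OE (681 ± 153) to the same line in high light. Untreated Atwrky63.3 OE thus had a mean signal of the size of that of Atwrky40 KO after high light (672 ± 313), and the ranges of these 2 groups overlapped. Untreated Col0 (211 ± 121) overlapped with Atwrky40.4 OE and Col0 after high light, its neighbours higher in the order. For WRKY6 only 1 step was clear, that above Atwrky40 KO after high light (100.4 ± 40.8) to untreated Atwrky63.3 OE (210 ± 31.5). Atwrky63.3 OE after high light (245 ± 144) came last and untreated Atwrky40.4 OE (19.8 ± 18.3) first.

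The response to high light asks whether 1 h of strong light changed the transcript within a line. WRKY53 rose in the 3 lines in which it could be tested. Its log2 change was 2.15 ± 0.42 in Atwrky63 KO (SE, limma adjusted p = 1.36e-04), where the fitted signal was 4.45-fold higher after high light. It was 2.03 ± 0.42 in Atwrky40 KO (adjusted p = 2.94e-04), 4.10-fold, and 1.498 ± 0.42 in Atwrky40.4 OE (adjusted p = 0.00531), 2.83-fold. Such calls were frequent: 46.5% of kept probe sets were called in Atwrky63 KO, 43.3% in Atwrky40 KO and 40.9% in Atwrky40.4 OE. The size of the WRKY53 change was less usual, since 4.23%, 4.27% and 7.94% of kept probe sets changed by more in these lines in that order. The median change of all kept probe sets lay between -0.25 and -0.17 in the 5 genotypes. Without a test, because the arrays took part in the choice of the gene, the change was 1.31 ± 0.42 in Atwrky63.3 OE and 0.35 ± 0.42 in Col0. Each of these 5 changes kept its direction with quantile normalization, and 1 array turned the smallest: the Col0 change was -0.03 without Col0 untreated replicate 1 and 0.16 to 0.78 without any other array of that genotype.

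WRKY6 showed no called response to high light in any of the 3 lines tested. In Atwrky40 KO its signals were 76.8, 148 and 76.8 after high light against 33.1, 69.9 and 54.1 untreated, a log2 change of 0.92 ± 0.52 (adjusted p = 0.16) with a 95% interval of -0.15 to 1.99. The ranges did not overlap in this line, but the gap between 76.8 and 69.9 is narrow. In Atwrky63 KO the signals were 86.7, 52.7 and 100.2 against 40.3, 70.4 and 61.8 (0.45 ± 0.52, adjusted p = 0.501, interval -0.62 to 1.53). In Atwrky63.3 OE they were 182, 145 and 410 against 245, 200.3 and 184 (0.09 ± 0.52, adjusted p = 0.904, interval -0.98 to 1.16). In the last 2 lines the ranges overlap. The Atwrky63.3 OE change was -0.36 (adjusted p = 0.631) without high light replicate 3, whose actin ratio was high, and -0.00313 without untreated replicate 3. Of kept probe sets 51.2% were called for high light in Atwrky63.3 OE and 43.9% in Col0.

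Without a test, WRKY6 in Atwrky40.4 OE had signals of 11.4, 59.7 and 37.3 after high light against 41.0, 9.17 and 9.31 untreated, a log2 change of 0.90 ± 0.52, and 1.58 without untreated replicate 1. Both conditions of this line are dim and overlap. In Col0 the signals were 55.1, 50.3 and 56.4 after high light against 54.1, 87.1 and 63.304 untreated (-0.31 ± 0.52), ranges that also overlap. The intervals of the tested changes still include rises of 1.16 or more on the log2 scale, so these arrays do not show that WRKY6 was unaffected by light.

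**Figure D2:**
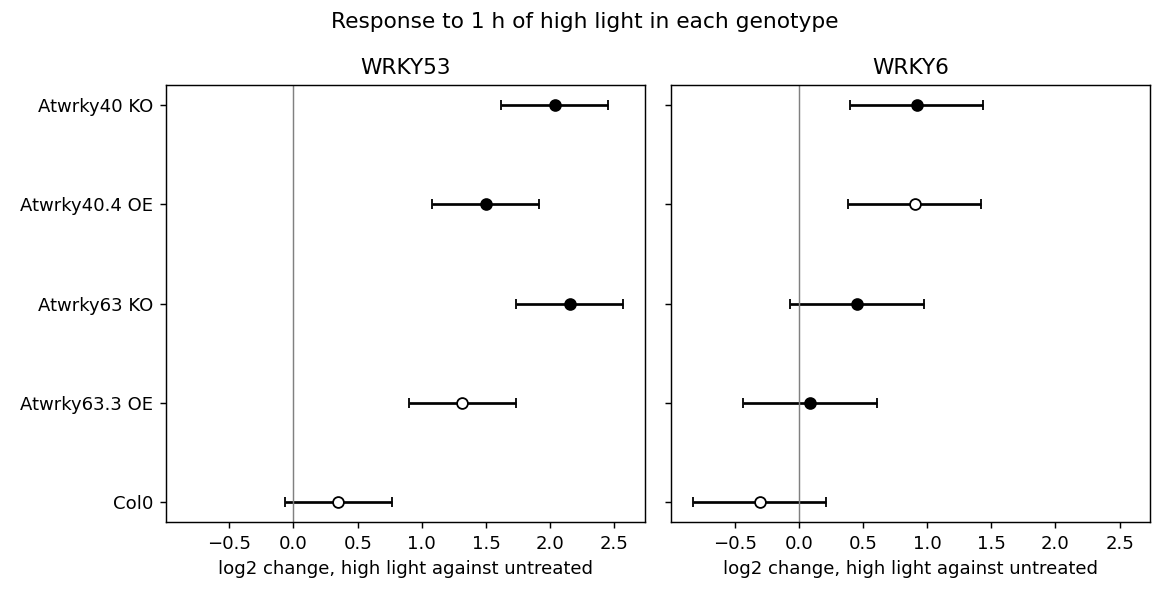
Log2 change of WRKY53 (left) and WRKY6 (right) after 1 h of high light against untreated in each genotype. Bars are ± 1 SE from the fit to all 30 arrays; filled points were tested and open points were not. WRKY53 lies between 1.31 and 2.15 in the mutant and overexpressing lines and at 0.35 in Col0, and WRKY6 lies between -0.31 and 0.92.

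Whether lines differed in the size of the response was asked directly. For WRKY53 the response of Atwrky40.4 OE minus that of Atwrky40 KO was -0.54 ± 0.59 (adjusted p = 0.814), that of Atwrky40.4 OE minus that of Atwrky63 KO -0.66 ± 0.59 (adjusted p = 0.785), and that of Atwrky40 KO minus that of Atwrky63 KO -0.12 ± 0.59 (adjusted p = 0.984). None of these was called. For WRKY6 the response of Atwrky63.3 OE differed by -0.37 ± 0.74 (adjusted p = 0.873) from that of Atwrky63 KO and by -0.83 ± 0.74 (adjusted p = 0.682) from that of Atwrky40 KO. The response of Atwrky40 KO minus that of Atwrky63 KO was 0.46 ± 0.74 (adjusted p = 0.926). Few probe sets were called for such differences. The share was 0.873% for Atwrky40.4 OE minus Atwrky40 KO, 0.0816% for Atwrky40.4 OE minus Atwrky63 KO and 0.515% for Atwrky40 KO minus Atwrky63 KO. It was 1.12% for Atwrky63.3 OE minus Atwrky63 KO and 1.68% for Atwrky63.3 OE minus Atwrky40 KO. Against Col0, whose untreated arrays took part in the choice of both genes, only values are given. The WRKY53 response exceeded that of Col0 by 1.81 ± 0.59 in Atwrky63 KO, 1.69 ± 0.59 in Atwrky40 KO, 1.15 ± 0.59 in Atwrky40.4 OE and 0.97 ± 0.59 in Atwrky63.3 OE. For WRKY6 the same differences were 0.76, 1.22, 1.21 and 0.39, each ± 0.74. All 8 share the Col0 arrays, so their common sign is not independent evidence.

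The lines can be set against Col0 on the high light arrays, which are assumed to have taken no part in the choice of either gene. Both members were higher in Atwrky63.3 OE. WRKY53 had 2103, 1003 and 2203 in Atwrky63.3 OE against 184, 245 and 312 in Col0. This is a log2 difference of 2.78 ± 0.42 (adjusted p = 1.08e-04), 6.89-fold, and all 3 arrays lay above all 3 of Col0. WRKY6 had 182, 145 and 410 in Atwrky63.3 OE against 55.1, 50.3 and 56.4 in Col0. Its difference was 2.02 ± 0.52 (adjusted p = 0.0136), 4.04-fold, also without overlap. In this comparison 10.2% of kept probe sets were called, and 0.345% differed by more than WRKY53 and 0.986% by more than WRKY6.

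The call of WRKY6 in Atwrky63.3 OE rested on 1 array. Without Atwrky63.3 OE high light replicate 3 the difference was 1.57 (adjusted p = 0.0989), and without it and Col0 untreated replicate 2, the arrays with high actin ratios, it was 1.57 (adjusted p = 0.0997). The WRKY53 call held without each of the 6 arrays in turn, with differences of 2.58 to 3.15. Atwrky63.3 OE high light replicate 2, with an actin ratio of 1.53, was the lowest of its group for WRKY53 (1003 against 2103 and 2203) and for WRKY6 (145 against 182 and 410). It was also lowest for the senescence-associated gene SAG101 (115 against 257 and 423) and for WRKY47 (84.0 against 138 and 217). The same array was the highest of its group for WRKY22 (386 against 138 and 217), the ethylene signalling gene EIN3 (1116 against 1030 and 887) and PYK10 (632 against 141 and 223). The part of RNA quality in these levels was not tested.

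Atwrky40 KO had more WRKY53 than Col0 after high light, with 389, 1008 and 621 against 184, 245 and 312, so that all 3 arrays lay above those of Col0. The log2 difference was 1.37 ± 0.42 (adjusted p = 0.0255), where 15.2% of kept probe sets were called. The call ended without Atwrky40 KO high light replicate 2 (1.02, adjusted p = 0.149) or 3 (1.37, adjusted p = 0.0649), and without Col0 high light replicate 1 (1.17, adjusted p = 0.103) or 2 (1.38, adjusted p = 0.0608). WRKY6 had 76.8, 148 and 76.8 in Atwrky40 KO against 55.1, 50.3 and 56.4 in Col0. The difference of 0.81 ± 0.52 was not called (adjusted p = 0.329, interval -0.26 to 1.88), and the ranges did not overlap. The leaf marker LHCB4.2 was lower in Atwrky40 KO than in Col0, by -0.71 ± 0.10 after high light (adjusted p = 1.09e-05) and by -0.80 ± 0.10 untreated (adjusted p = 1.91e-06), while RCA was not called (-0.13 and -0.04). The part of this shift in the Atwrky40 KO levels of WRKY53 and WRKY6 was not tested.

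Neither gene was called in the other lines after high light. In Atwrky40.4 OE, WRKY53 differed from Col0 by -0.07 ± 0.42 (adjusted p = 0.962, interval -0.93 to 0.78), with 2.44% of kept probe sets called. WRKY6 differed there by -0.84 ± 0.52 (adjusted p = 0.477, interval -1.91 to 0.23), with signals of 11.4, 59.7 and 37.3 against 55.1, 50.3 and 56.4. The lowest of these arrays is far below Col0 and the highest above it. On 2 of the 3 Atwrky40.4 OE arrays WRKY6 was below the filter signal of 46.7. The mean log2 signal of that group, 4.94, was below the filter at 5.57, and that of Col0 was 5.78. WRKY6 entered this test through its mean over all arrays, so the test cannot decide whether it differed between these lines. In Atwrky63 KO, WRKY53 differed by 0.50 ± 0.42 (adjusted p = 0.826) and WRKY6 by 0.51 ± 0.52 (adjusted p = 0.869). Of all kept probe sets 0.0251%, that is 4, were called in Atwrky63 KO after high light.

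**Figure D3:**
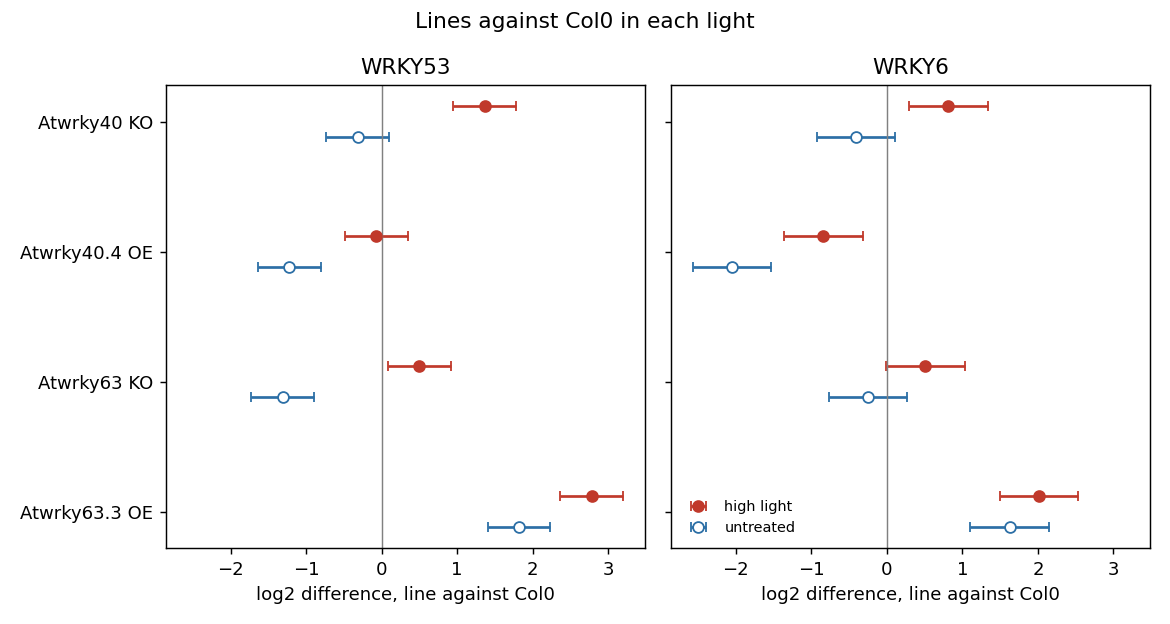
Log2 difference of each line from Col0 for WRKY53 (left) and WRKY6 (right), in high light (red, above) and untreated (blue, below). Bars are ± 1 SE; filled points were tested, and open points share arrays with the comparisons through which the genes were chosen. Atwrky63.3 OE lies above Col0 in both lights for both genes, with differences between 1.62 and 2.78.

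Without treatment the lines are described and not tested. Atwrky63.3 OE had 624, 854 and 566 for WRKY53 against 111, 176 and 346 in Col0, a log2 difference of 1.82 ± 0.42, the value through which the gene was chosen. For WRKY6 it had 245, 200.3 and 184 against 54.1, 87.1 and 63.304 (1.62 ± 0.52). Neither gene's ranges overlapped. Atwrky40.4 OE lay on the other side of Col0 for both genes. WRKY53 was at 76.7, 93.5 and 72.7 in Atwrky40.4 OE (-1.22 ± 0.42), below every Col0 array. WRKY6 was at 41.0, 9.17 and 9.31 (-2.05 ± 0.52), the value through which it was chosen and also below every Col0 array. That difference was -1.33 with a pseudocount of 16 and -2.73 without Atwrky40.4 OE untreated replicate 1, so its size depends on how the dim signals are treated.

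The knockouts stood nearer to untreated Col0, apart from WRKY53 in Atwrky63 KO. There 2 arrays read 52.9 and 54.0, below all Col0 arrays, and the remaining one 152, within the Col0 range (-1.31 ± 0.42). WRKY53 in Atwrky40 KO (-0.32 ± 0.42) and WRKY6 in Atwrky40 KO (-0.41 ± 0.52) and Atwrky63 KO (-0.25 ± 0.52) overlapped with Col0. The share of kept probe sets called without treatment was 4.26% in Atwrky63.3 OE, 2.45% in Atwrky40.4 OE, 14.3% in Atwrky40 KO and 0.502% in Atwrky63 KO. These 4 comparisons use the same Col0 arrays, whose WRKY53 signals spread from 111 to 346.

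Setting each overexpressor against the knockout of the same gene avoids Col0. For the WRKY63 lines in high light WRKY53 was 2.29 ± 0.42 higher on the log2 scale in Atwrky63.3 OE than in Atwrky63 KO (adjusted p = 6.69e-04), 4.88-fold, with 2103, 1003 and 2203 against 420, 193 and 489. WRKY6 was not called there, at 1.51 ± 0.52 (adjusted p = 0.0558), with 182, 145 and 410 against 86.7, 52.7 and 100.2. It was called with a pseudocount of 16 (1.35, adjusted p = 0.017) and without Atwrky63.3 OE high light replicate 2 (1.81, adjusted p = 0.0398). Of kept probe sets, 13.0% were called.

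Untreated, WRKY6 was higher in Atwrky63.3 OE than in Atwrky63 KO, with 245, 200.3 and 184 against 40.3, 70.4 and 61.8. The difference was 1.88 ± 0.52 (adjusted p = 0.0203), where 9.59% of kept probe sets were called. The call ended without Atwrky63.3 OE untreated replicate 1 (1.76, adjusted p = 0.0821) or 2 (1.90, adjusted p = 0.0523), and without Atwrky63 KO untreated replicate 1 (1.64, adjusted p = 0.0952). For WRKY53, not tested here, the difference was 3.13 ± 0.42, 8.73-fold. It uses the untreated Atwrky63.3 OE arrays through which the gene was chosen, and that choice favours a large value.

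The WRKY40 lines ran the opposite way: both genes were lower in the overexpressor than in the knockout after high light. WRKY53 had 198, 231 and 264 in Atwrky40.4 OE against 389, 1008 and 621 in Atwrky40 KO, a difference of -1.44 ± 0.42 (adjusted p = 0.0156). WRKY6 had 11.4, 59.7 and 37.3 against 76.8, 148 and 76.8, a difference of -1.65 ± 0.52 (adjusted p = 0.0261). In neither case did the ranges overlap, and 18.5% of kept probe sets were called. The WRKY53 call ended without Atwrky40 KO high light replicate 2 (-1.10, adjusted p = 0.105) or Atwrky40.4 OE high light replicate 1 (-1.33, adjusted p = 0.0504). The WRKY6 call ended without the same arrays (-1.34, adjusted p = 0.124, and -1.0004, adjusted p = 0.189) and in a fit to only these arrays (adjusted p = 0.111). LHCB4.2 was higher in Atwrky40.4 OE than in Atwrky40 KO, by 0.43 ± 0.10 after high light (adjusted p = 0.00324) and 0.57 ± 0.10 untreated (adjusted p = 1.92e-04).

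Untreated, WRKY53 had 76.7, 93.5 and 72.7 in Atwrky40.4 OE against 145, 135 and 178 in Atwrky40 KO, without overlap. The difference of -0.90 ± 0.42 was not called (adjusted p = 0.157), with 16.1% of kept probe sets called. A fit to only these 6 arrays called it (adjusted p = 0.0276). For WRKY6, not tested there, the difference was -1.64 ± 0.52, with ranges that overlapped because Atwrky40.4 OE untreated replicate 1 (41.0) lay above the lowest knockout array (33.1).

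A share of the variance describes what the members had in common. Of the variance of log2 signal over the 30 arrays, the line accounted for 56.4% in WRKY53 and 72.8% in WRKY6, against a median of 17.2% over kept probe sets. Light accounted for 27.6% in WRKY53 and 2.87% in WRKY6, against a median of 31.3%. These shares are descriptions only: they include the untreated arrays on which the genes stood out between lines, and that choice favours a large share for the line. The interaction of line and light held 5.28% and 3.81%, and the spread within groups 10.8% and 20.6%. The spread within groups was wide for both, with a pooled SD of 0.56 for WRKY53 and 0.67 for WRKY6 on the log2 scale against a median of 0.24 over kept probe sets.

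The members followed each other across the groups. Over the 10 group means of log2 signal their Pearson correlation was 0.84, and over the 30 arrays it was 0.75. Without the Atwrky63.3 OE groups it was 0.65 over 8 group means and 0.54 over 24 arrays, and for deviations from the group mean over the 30 arrays it was 0.34. These are descriptions, because both signals come from the same arrays and share their scaling and RNA quality. Both genes were low in untreated Atwrky40.4 OE, the lowest group for WRKY6 and next to the lowest by mean log2 signal for WRKY53. In untreated Atwrky63 KO they parted, with WRKY53 at its lowest mean log2 signal and WRKY6 overlapping with Col0.

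**Figure D4:**
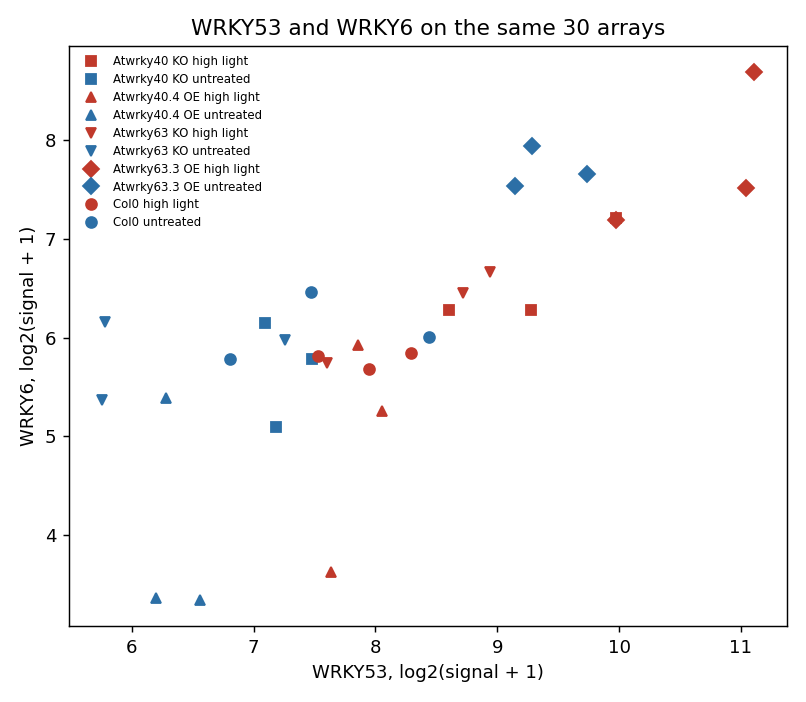
WRKY6 against WRKY53 on the same 30 arrays, both as log2(signal + 1), with high light in red and untreated in blue and a marker for each genotype. The Atwrky63.3 OE arrays (diamonds) lie at the upper right and 2 of the 3 untreated Atwrky40.4 OE arrays at the lower left, and the correlation over all arrays is 0.75.

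Other genes of leaf senescence were looked for in 4 fixed lists of 44 genes, namely regulators, senescence-associated and breakdown genes, partners and reported targets of WRKY53 or WRKY6, and salicylate signalling. The annotation names 2 of them, SAG101 and EIN3, and both were kept. Of the WRKY family it names 4 further genes, WRKY20, WRKY22, WRKY42 and WRKY47, of which WRKY42 did not reach the filter. These 5 kept genes gave 10 calls in 25 pairs of gene and genotype for the high light response, beside 45.2% of all such pairs over the kept probe sets. They gave 4 calls in 20 pairs for the 4 lines against Col0 in high light, beside 6.97%, and 1 in 20 untreated, beside 5.37%. Such small lists describe these genes and say nothing of the pathway as a whole.

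SAG101, an acyl hydrolase-like protein that also works with EDS1 in immunity, was higher in Atwrky63.3 OE than in Col0 after high light and was not called untreated (1.00255 ± 0.31, adjusted p = 0.0696). After high light it had 257, 115 and 423 in Atwrky63.3 OE against 79.3, 66.1 and 60.3 in Col0, a log2 difference of 1.75 ± 0.31 (adjusted p = 6.70e-04). It was also higher in Atwrky63.3 OE than in Atwrky63 KO, by 1.62 ± 0.31 after high light (adjusted p = 0.00112) and by 0.99 ± 0.31 untreated (adjusted p = 0.0438). SAG101 fell after high light in Col0, to 79.3, 66.1 and 60.3 against 124, 146 and 138 untreated, a change of -0.99 ± 0.31 (adjusted p = 0.0123). It also fell in Atwrky63 KO (-0.87 ± 0.31, adjusted p = 0.0245). That call was lost when arrays were quantile normalized (-0.58, adjusted p = 0.128), without Atwrky63 KO high light replicate 2 (-0.61) and without Atwrky63 KO untreated replicate 3 (-0.75). In a fit to only the arrays compared, the 2 calls after high light in Atwrky63.3 OE ended (adjusted p = 0.0714 against Col0 and 0.079 against Atwrky63 KO). The untreated call ended with no filter (adjusted p = 0.0649) and when any single array of the 6 other than Atwrky63.3 OE untreated replicate 2 was left out (0.87 to 1.11).

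SAG101 was lower in untreated Atwrky40.4 OE than in untreated Atwrky40 KO (-0.99 ± 0.31, adjusted p = 0.0293). This call ended without Atwrky40.4 OE replicate 1 (-0.78) or 3 (-1.03) or Atwrky40 KO replicate 1 (-0.87) or 2 (-1.01). EIN3, a transcription factor of ethylene signalling that promotes senescence, fell after high light in Col0 (-0.79 ± 0.17, adjusted p = 5.75e-04), Atwrky63 KO (-0.62 ± 0.17, adjusted p = 0.00487) and Atwrky63.3 OE (-0.61 ± 0.17, adjusted p = 0.00454). After high light EIN3 was higher than in Col0 in Atwrky63.3 OE (0.60 ± 0.17, adjusted p = 0.0271) and Atwrky40 KO (0.55 ± 0.17, adjusted p = 0.0315). Both calls ended without Col0 high light replicate 2, with 0.36 and 0.31 in that order. The first ended as well without Atwrky63.3 OE high light replicate 1 (0.58) or 2 (0.52), and the second without any 1 of the Atwrky40 KO high light arrays (0.49 to 0.58) and with quantile normalization (0.50, adjusted p = 0.0529). A fit restricted to the 6 arrays of each comparison called neither (adjusted p = 0.193 and 0.0926 in that order).

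WRKY47, which belongs to the same subgroup of the family as WRKY6, was also high in Atwrky63.3 OE. Untreated it had 290, 345 and 284 in Atwrky63.3 OE against 104, 89.9 and 78.9 in Col0, a difference of 1.75 ± 0.37 (adjusted p = 0.00481). After high light it averaged 146 ± 67.1 against 43.0 ± 24.9 (SD, n = 3 each), a difference of 1.78 ± 0.37 (adjusted p = 0.00257) that a fit restricted to these 6 arrays did not call (adjusted p = 0.0934). Its level exceeded that of Col0 without overlap in both lights. Its light response ran downward, however, with -1.16 ± 0.37 in Atwrky63.3 OE (adjusted p = 0.0104) and -1.19 ± 0.37 in Col0 (adjusted p = 0.0103). The first ended without Atwrky63.3 OE high light replicate 2 (-0.82) and the second without Col0 high light replicate 2 (-0.96) or 3 (-0.99).

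Against Atwrky63 KO, WRKY47 was higher in Atwrky63.3 OE by 1.71 ± 0.37 untreated (adjusted p = 0.00264) and by 1.21 ± 0.37 after high light (adjusted p = 0.0294). The call after high light ended on only the arrays compared (adjusted p = 0.109) and without Atwrky63.3 OE high light replicate 1 (1.20) or 3 (0.87) and without Atwrky63 KO high light replicate 1 (0.95). WRKY22, a regulator in pathogen response and dark-induced senescence, rose after high light in Atwrky63.3 OE (1.88 ± 0.55, adjusted p = 0.00595) and in Atwrky63 KO (1.84 ± 0.55, adjusted p = 0.00774). The Atwrky63 KO value was 1.07 and not called without its untreated replicate 1, which read 14.5 against 55.9 and 104 on the other arrays of that group. WRKY20 fell after high light in Atwrky63.3 OE (-0.44 ± 0.12, adjusted p = 0.0049), but not with quantile normalization (-0.26, adjusted p = 0.0743).

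**Figure D5:**
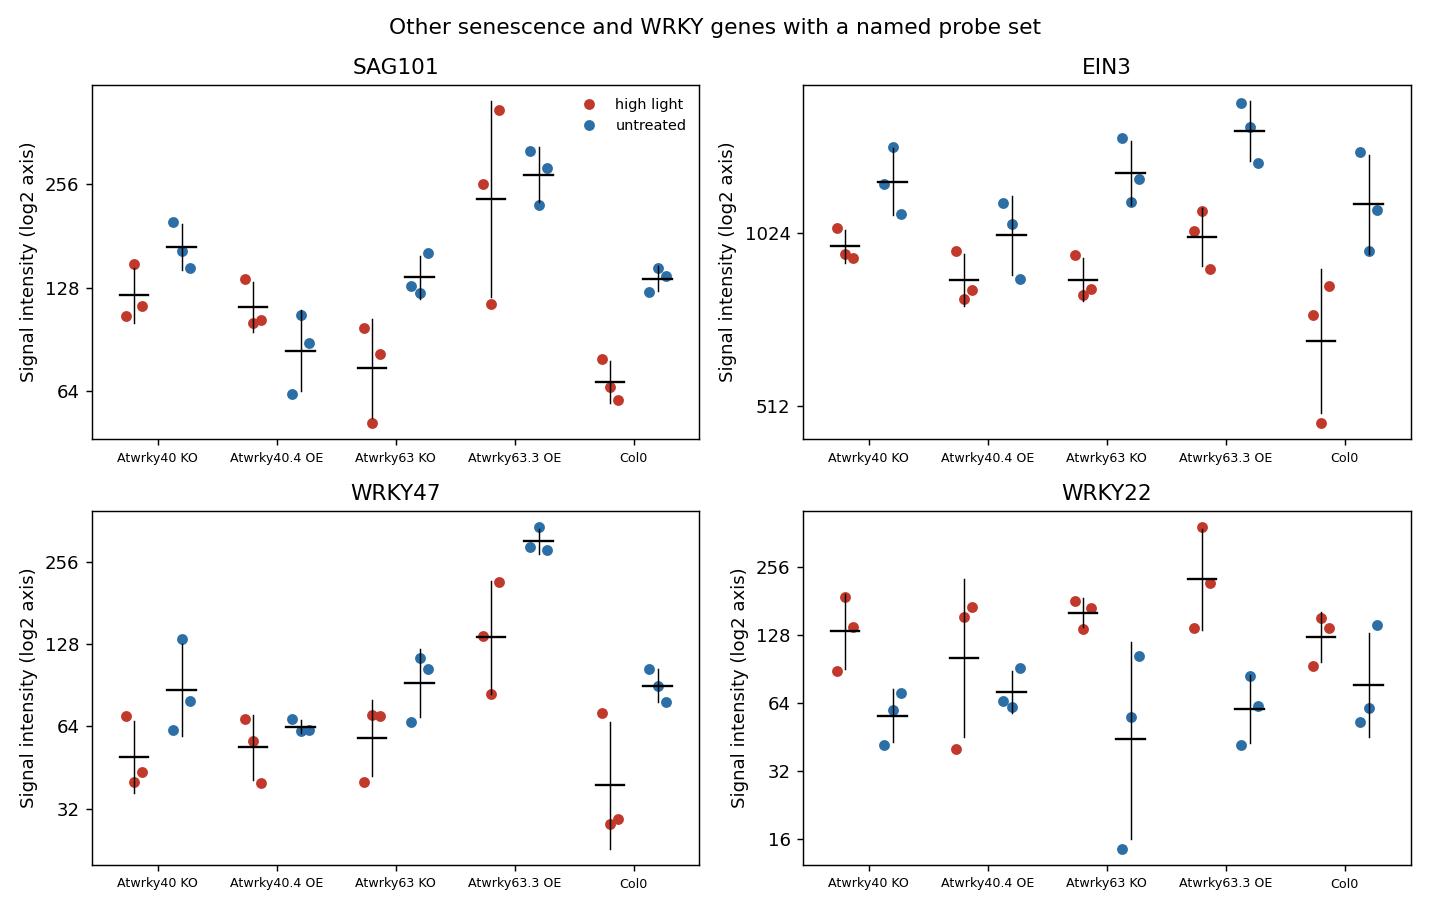
Signal intensity on a log2 axis of SAG101, EIN3, WRKY47 and WRKY22 on each of the 30 arrays, with high light in red to the left of untreated in blue. Points are arrays, horizontal bars the mean on the log2(signal + 1) scale and vertical bars ± 1 SD on that scale (n = 3). SAG101 and WRKY47 are high in Atwrky63.3 OE, and EIN3 is lower after high light than untreated in Col0.

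Among the other 8767 kept probe sets that name 1 gene, those with the pattern most like each member over the 10 group means were listed as a description. For WRKY53 they were the UDP-glycosyltransferase gene UGT87A2 (Pearson r = 0.96), AT1G18390 (0.96), AT5G15870 (0.96), AT5G52760 (0.96) and AT3G48650 (0.95). After high light in Atwrky63.3 OE these genes differed from Col0 by 1.21, 1.29, 0.81, 3.34 and 2.87 on the log2 scale in that order. The value of WRKY53 was 2.78, so a like pattern did not mean a like size. The choice by likeness favours a shared direction. The most opposed were AT5G23750 (-0.98), AT5G14410 (-0.96), AT5G42200 (-0.95), AT3G09730 (-0.94) and AT4G14650 (-0.94).

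For WRKY6 the most alike were AT1G76970 (0.97), AT1G63750 (0.96), LPR2 (0.95), AT5G52750 (0.93) and BIK1 (0.93). BIK1, a receptor-like cytoplasmic kinase of immune signalling, differed from Col0 by 0.74 in Atwrky63.3 OE and -1.12 in Atwrky40.4 OE after high light. LPR2, a multicopper oxidase of the root response to low phosphate, differed by 0.89 and -0.37 in those lines. All 5 had fitted means above Col0 in Atwrky63.3 OE and below it in Atwrky40.4 OE in both lights, as WRKY6 had, which the choice by likeness favours. The most opposed were AT1G78020 (-0.96), AT3G04960 (-0.92), AT3G05400 (-0.91), scpl25 (-0.91) and AT3G12860 (-0.90). WRKY6 ranked 90th in likeness to WRKY53, and WRKY53 46th in likeness to WRKY6.

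The genes that flank the members along the chromosome, in the order of the TAIR10.1 gene table, were compared as well, with the 10 nearest kept named genes on each side, a choice made after the values of the members were seen. Around WRKY53 in Atwrky63.3 OE against Col0, 3 of the 20 genes were higher and 2 lower after high light (median log2 difference -0.11). Untreated, 3 were higher and 3 lower (median 0.11). Single genes there ran from -1.47 to 2.19 after high light and from -1.56 to 2.04 untreated. Around WRKY6 in that line 0 were higher and 4 lower after high light (median -0.25, range -0.97 to 0.89). Untreated, 0 were higher and 1 lower (median -0.10, range -1.01 to 0.85). Over all kept probe sets 10.2% were called after high light and 4.26% untreated. In Atwrky40 KO, 3 genes around WRKY53 were higher and 0 lower in either light, with medians of 0.28 after high light and 0.30 untreated. Around WRKY6 in that line 0 were higher and 3 lower after high light (median -0.03), and 0 were higher and 4 lower untreated (median -0.23), where 15.2% and 14.3% of kept probe sets were called in that order. In Atwrky40.4 OE after high light 1 gene of 20 was lower around WRKY53 and 1 was higher around WRKY6, beside 2.44% of kept probe sets. Untreated, limma called 0 around either gene there, beside 2.45%. At an unadjusted limma p under 0.05 there were 6 around WRKY53 and 4 around WRKY6 in untreated Atwrky40.4 OE. The same counts were 9 and 5 in untreated Atwrky63.3 OE and 9 and 8 in untreated Atwrky40 KO. The share of all kept probe sets at that looser threshold was not computed, so these counts have nothing to be set against. Counts over 20 genes are descriptions.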

How the data were processed

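Leaf RNA was measured on 30 Affymetrix ATH1 arrays. The deposited values are 1 linear signal intensity per probe set, which the authors obtained from MAS5, as listed in the submitters' processing notes, without a version or settings. The files are per array and were not pooled. Groups and replicate numbers came from the sample titles. The series design text names WRKY60 where the title and labels name WRKY63, and the labels were followed. Of 22810 probe sets 64 controls were left out. Of the rest 13513 name 1 gene in the platform annotation, which can be old, 503 name several and 8730 are unnamed here.

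With R 4.3.3 and limma 3.58.1, signals were taken as log2(signal + 1), and the 15922 probe sets at or past the 30th percentile of mean log2 signal stayed in. One model with a mean per group was fitted to all arrays, with empirical Bayes moderation and a variance trend. Benjamini-Hochberg adjustment ran over all kept probe sets within each of 26 comparisons, with a call at an adjusted p under 0.05. Fold changes on the log2(signal + 1) scale understate changes of dim probe sets. Steps were tested on simulated data. The number of arrays limits the precision.

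Members and gene lists were chosen with earlier results of these data known. Genes named are the members, called members of the fixed lists, and the 5 most alike and 5 most opposed to each member over group means. The flanking genes and the alternatives for the leaf and root markers were added after the values were seen. Alternatives were another pseudocount, filters, quantile normalization, variance models, a replicate block, fewer arrays and leaving out each array.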

Additional observations from a re-analysis of the deposited data

How the results depend on the processing

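Alternatives other than leaving out an array kept direction and side of the threshold in 233 values of WRKY53 and 196 of WRKY6. Where not tested, a value counted if it stayed within 1 SD of the main value. Many of the untested outcomes were fixed in advance. Other filters, other variance models, the replicate block and a fit to only the arrays compared left the log2 value as it was wherever they gave one. For WRKY53 in untreated Atwrky63.3 OE against Col0 it was 1.82 in each. The counts include such outcomes, which say nothing of robustness. The exceptions were these. A fit to only the arrays compared called WRKY53 in untreated Atwrky40.4 OE against Atwrky40 KO (-0.90, adjusted p = 0.0276) and ended the call of WRKY6 in the same lines after high light (-1.65, adjusted p = 0.111). A pseudocount of 16 gave WRKY6 1.35 (adjusted p = 0.017) in Atwrky63.3 OE against Atwrky63 KO after high light and -1.33 in untreated Atwrky40.4 OE against Col0. Without the 2 arrays with the highest actin ratios, WRKY6 had 1.57 (adjusted p = 0.0997) in Atwrky63.3 OE against Col0 after high light and -0.36 for high light in Atwrky63.3 OE. The causes were not tested. WRKY6 did not reach a filter at the 50th percentile and has no value there. It also has no value in some of the fits to only the arrays compared. Those fits applied the filter anew, and the mean of WRKY6 over those arrays did not reach it.

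Leaving out 1 array at a time gave WRKY53 1.02 to 1.71 for Atwrky40 KO against Col0, -0.27 to 0.11 for Atwrky40.4 OE against Col0 and -1.78 to -1.10 for Atwrky40.4 OE against Atwrky40 KO, all after high light, and -0.62 to 0.22 for the response of Atwrky40 KO minus that of Atwrky63 KO. For WRKY6 the ranges were 1.57 to 2.32 for Atwrky63.3 OE against Col0 after high light, -2.15 to -1.0004 for Atwrky40.4 OE against Atwrky40 KO and 1.06 to 1.81 for Atwrky63.3 OE against Atwrky63 KO after high light, and 1.64 to 2.04 for Atwrky63.3 OE against Atwrky63 KO untreated. They were -0.36 to 0.39 for high light in Atwrky63.3 OE, 0.41 to 1.58 for high light in Atwrky40.4 OE, -2.73 to -1.71 for untreated Atwrky40.4 OE against Col0 and -2.32 to -1.30 against untreated Atwrky40 KO. The response of Atwrky40.4 OE gave 0.72 to 1.89 minus that of Col0, -0.51 to 0.66 minus that of Atwrky40 KO and -0.045 to 1.13 minus that of Atwrky63 KO.

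Of the 10, 4 and 1 calls of listed genes for high light, lines in high light and untreated lines, 4, 2 and 0 were left with the filter at the 50th percentile. On only the arrays compared 0 were called for lines in high light and 2 for untreated lines. Leaving out 1 array gave 9 to 11, 2 to 5 and 1. Counts of all called probe sets moved by over 1.5 times in these comparisons. Against Col0 after high light they ran over the settings from 448 to 1726 (1621 as reported) in Atwrky63.3 OE, 126 to 543 (388) in Atwrky40.4 OE and 1 to 10 (4) in Atwrky63 KO. Untreated they ran from 308 to 743 (678), 218 to 428 (390) and 4 to 112 (80) in those lines and 1380 to 2463 (2271) in Atwrky40 KO. For Atwrky63.3 OE against Atwrky63 KO they ran from 879 to 2176 (2070) after high light and 866 to 2080 (1527) untreated. For the differences of responses in the order given in the report they ran from 63 to 217 (139), 0 to 21 (13), 51 to 127 (82), 70 to 307 (178) and 122 to 382 (268).

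The labels do not tell if replicate numbers pair the arrays. Deviations of same-numbered arrays from their group means correlated from -0.16 to 0.32 over 135 pairs (median 0.03), with 33 over 0.1. Of the 30 arrays, 22 correlated best with their own number among the 3. Arrays of the same number may thus share variation, which the main fit did not model. With the replicate number as a block, WRKY53 in Atwrky63.3 OE against Col0 after high light had 2.78 (adjusted p = 5.33e-05) and WRKY6 2.02 (adjusted p = 0.0163), and the block changed no call of the members. The median change of all probe sets for high light was -0.08 with quantile normalization and -0.22 as reported in Atwrky63 KO, where 42.3% and 30.5% of calls were rises. In Atwrky40 KO and Atwrky63.3 OE that median was -0.10 and -0.12 with quantile normalization, and -0.20 and -0.25 as reported. Among calls of Atwrky40.4 OE against Col0 after high light, 44.0% were higher with quantile normalization and 54.1% as reported.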
